A study of Mus musculus with 12 samples.

Results

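Interferon-stimulated genes are genes that cells switch on when interferon binds its receptors, and 43 of them were followed here across bulk RNA-seq libraries of 3T3-L1, a wild-type fibroblast line from mouse embryos. The genes were taken as a list of symbols from the families that encode antiviral and interferon-response proteins. This list and the related gene lists below were chosen with earlier results of these data known. Their shares of called genes are therefore a description beside the shares over all tested genes, and no test of the lists. All 43 symbols were found among the 56941 genes of the count table, and all 43 were among the 14810 genes with enough reads to be tested. The question of the experiment was how the type 2 cytokines IL-4 and IL-13 act on fibroblasts, alone and in an inflammatory setting. The 4 conditions had 3 libraries each. Control cells received vehicle by their treatment label and carry library names that read untreated, IL-4/13 cells received 50 ng/mL each of IL-4 and IL-13, and Inf cells received 20 ng/mL TNF-a, 50 ng/mL IL-17A and 0.5 ng/mL IL-1b. The fourth condition, IL-4/13 + Inf, received all of these cytokines. RNA was taken after 24 hours, no interferon was added in any condition, and all libraries carry the same batch date in their labels. The labels do not say whether libraries of a condition came from separate cultures, so P values measure the spread between libraries, which may be technical.

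Type I interferons signal through the receptor chains IFNAR1 and IFNAR2 to the kinases JAK1 and TYK2, which activate a complex that holds STAT2 and IRF9 and binds the interferon-stimulated response element (ISRE) in promoters. Interferon gamma signals through IFNGR1 and IFNGR2 to factors that bind the gamma-activated site (GAS). Fibroblasts are a classical source of interferon beta and respond to both kinds of interferon. The proteins encoded by the members bind viral RNA, block viral entry or replication, attack vacuoles that hold microbes, or feed back on the pathway.

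Levels are given as CPM, the reads of a gene as a share of the library after scaling for library composition, with the SD over 3 libraries. A gene was called at an adjusted P below 0.05 with a log2 fold change beyond 0.25, using edgeR's quasi-likelihood test on all tested genes. Total counts ranged from 13446005 to 20775769 per library. All 9 fibroblast markers checked were tested, and their summed level was 14600 to 16700 CPM in control. It was 12600 to 13300 CPM in the IL-4/13 libraries, 12600 to 13700 CPM with Inf, and 10600 to 10900 CPM with both. Of 12 macrophage markers, 8 had at most 5 counts in every library, C1qa, C1qb, C1qc and Tyrobp had none, and the summed level was 4.46 to 13.3 CPM. The 4 that were tested, Csf1r, Mertk, Cd68 and Lyz2, had at most 75, 97, 32 and 56 counts in a library. Of 7 T and NK cell markers, 6 had no count in any library, and the summed level was at most 0.0974 CPM. The sums for plasmacytoid dendritic cell, endothelial and adipocyte markers reached at most 1.35, 1.64 and 0.194 CPM. Spib, the plasmacytoid dendritic cell marker that was tested, was at a mean of 0.021 CPM in control and 0.89 CPM with both. The 5 adipocyte markers had at most 5 counts each.

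The members moved together between libraries of the same condition, so counts of called members are not counts of independent results. Most also spread more than other genes, as given below, which widens the error of the comparisons. This held less for Ifit2, Irf1 and Ifi27, with SEs of 0.065, 0.056 and 0.060 on the log2 scale for Inf against control. The summed level of the 43 members was 1447, 1615 and 2098 CPM in the control libraries 1, 2 and 3. The IL-4/13 libraries had 1820, 1573 and 1826 CPM, the Inf libraries 3885, 2846 and 3557 CPM, and those with both 3793, 3996 and 3535 CPM. The Inf libraries and the IL-4/13 + Inf libraries all lay above the control and IL-4/13 libraries. Control 3 had the highest level of its condition for 39 of the 43 members, where it was highest for 35% of all tested genes. Inf 2 had the lowest level of its condition for 40 members, where it was lowest for 29.3% of all tested genes. IL-4/13 2 was lowest for 37 members, and IL-4/13 + Inf 2 was highest for 34. The same held for 57 other interferon-stimulated genes that are no members, of which 51 were highest in control 3 and 46 were lowest in Inf 2. The median coefficient of variation of the members was 24.5% over the control libraries. It was 7.04% for the 13568 other tested genes between the lowest and highest member mean, which were not matched to the members on level. The members had 12.5% against 6.5% with IL-4/13, 18.4% against 7.67% with Inf, and 8.31% against 4.9% with both. What set these libraries apart was not tested.

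**Figure D1:**
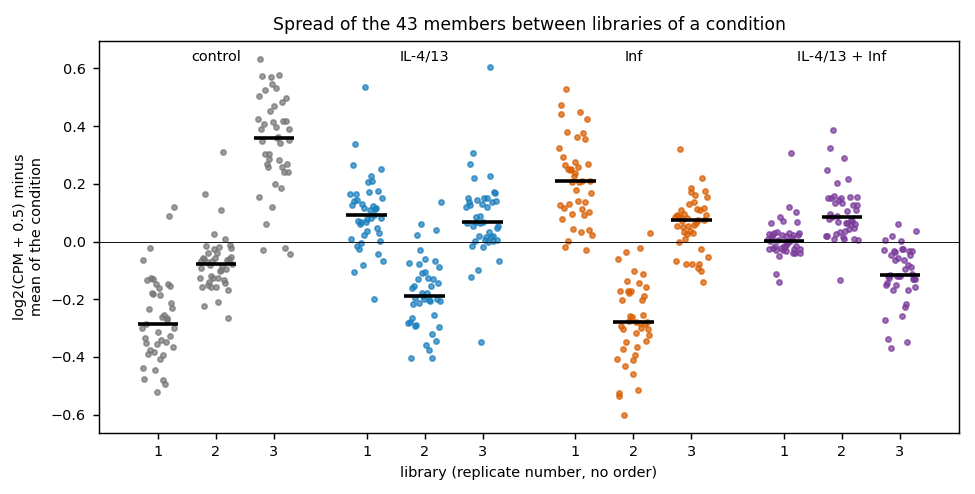
Each point is a member's log2(CPM + 0.5) in a library minus its mean in the condition, and the bars are medians over the 43 members. The points of control 3 lie mostly above 0 and those of control 1, Inf 2 and IL-4/13 2 mostly below it, and 39 members were highest in control 3.

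The inflammatory cytokines raised nearly the whole list. With Inf against control, 39 of 43 members were called higher and 0 lower (90.7% higher), where 16.3% of all tested genes were called higher and 15.3% lower. The median log2 fold change of the 43 members was 1.03, a fold of 2.04, and the median of all tested genes was 0.0073. Among the called members it ran from 0.36 for Trim25 to 4.04 for Gbp5. The adjusted P ranged from 2.66e-11 to 0.026. For 38 members the lowest Inf library was above the highest control library, as for 23.5% of all tested genes, and the other 5 overlapped. The count was 39 without control 3 and 39 without Inf 2, but leaving out either of these widens the difference for most members. It was 37 without control 1, 36 without Inf 1 and 37 without Inf 3. Across all single libraries left out it went from 35 to 39, the lowest without control 2, where Ifi47, Igtp, Irgm1 and Rsad2 were lost. In bulk RNA a change in the share of cells that express a gene and a change in the RNA per cell cannot be told apart.

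**Figure D2:**
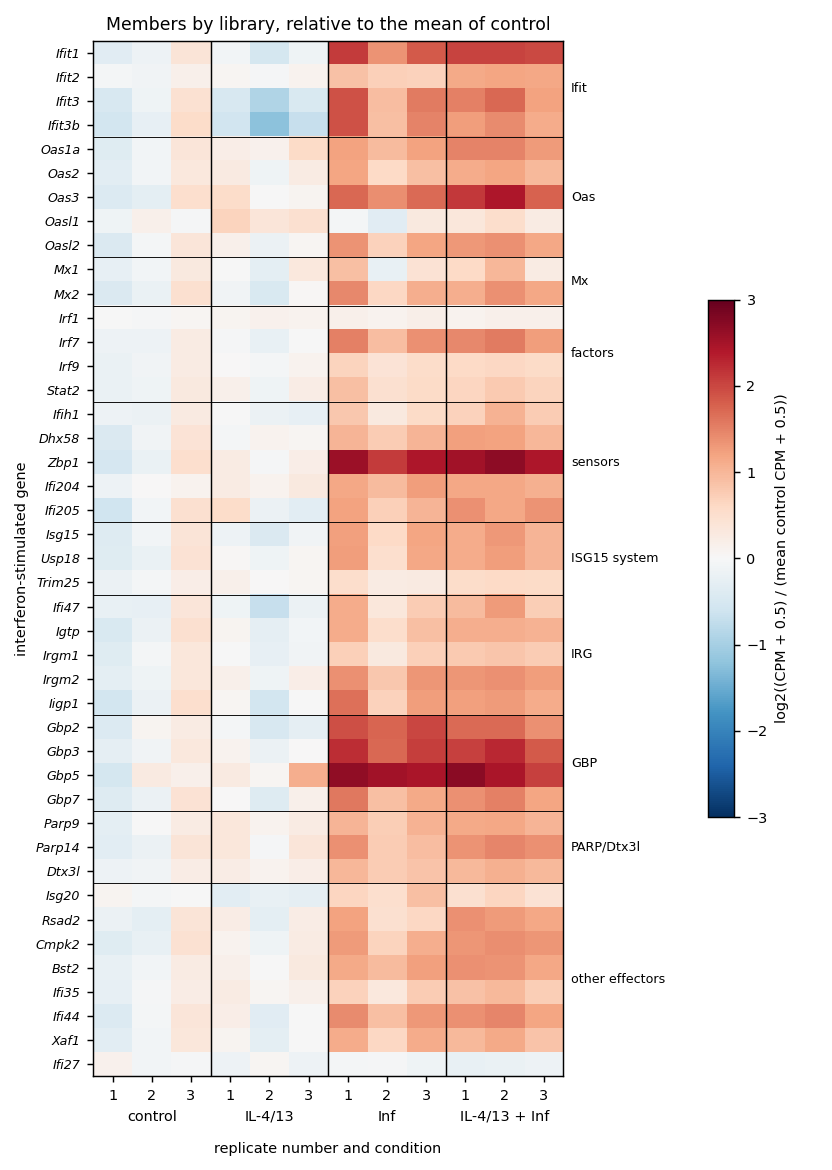
Columns are the 12 libraries by condition and replicate number, rows are the 43 members by family, and color is log2 of CPM + 0.5 over the mean control CPM + 0.5. The Inf and IL-4/13 + Inf columns are red for most rows, with the pale rows of Oasl1, Mx1, Irf1 and Ifi27 as exceptions, and the Inf 2 column is paler than Inf 1 and Inf 3 for 40 members.

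**Figure D3:**
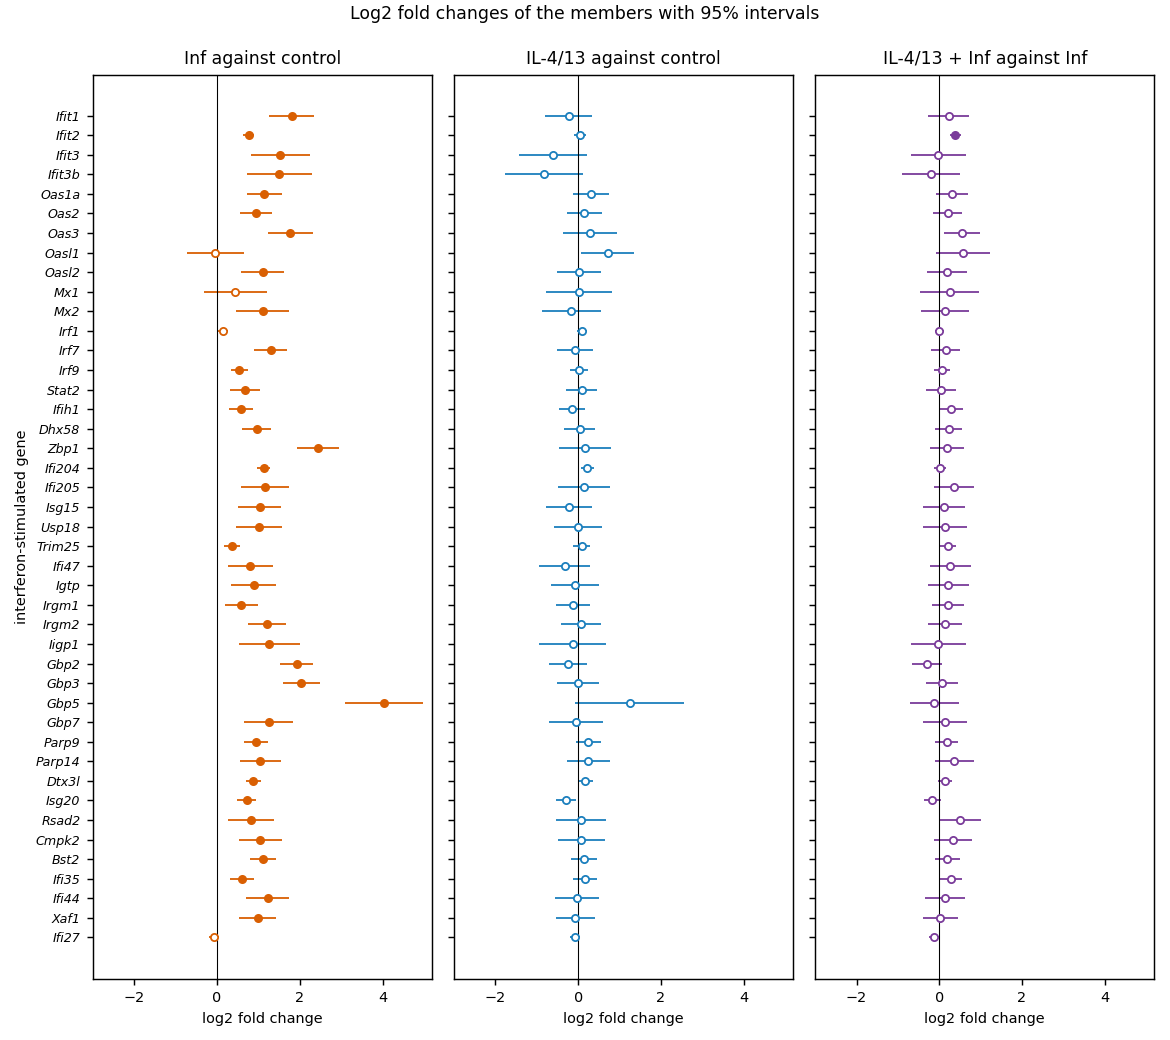
Points are log2 fold changes of the members with 95% intervals, in a panel each for Inf and for IL-4/13 relative to control and for IL-4/13 + Inf relative to Inf, and filled points are called. There are 39 filled points in the Inf panel, 0 in the IL-4/13 panel, and 1, Ifit2, in the last.

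The guanylate-binding proteins, GTPases that coat and break open microbial vacuoles, had the highest family median of log2 fold change with Inf, 1.98, and all 4 were called higher. Gbp5, which also promotes inflammasome assembly, was at 0, 0.372 and 0.300 CPM in control and at 4.05, 3.65 and 3.46 CPM in Inf. These levels rest on few reads, with 0, 6 and 5 counts in the control libraries and 61, 75 and 57 in the Inf libraries, but the groups did not overlap. Its log2 fold change was 4.04 ± 0.45 (SE), a 16.4-fold rise (adjusted P = 3.53e-08, edgeR's quasi-likelihood test), and it was 3.45 without control 1, which had no count of Gbp5. Gbp5 passed the filter on low counts only through the conditions with Inf, where it was high, so the test is no separate support for the rise. It was not tested where a mean of at least 50 counts was required, and it was called in each of 18 other alternatives. Gbp3 was at 19.3, 21.8 and 29.4 CPM in control and at 110, 78.3 and 100 CPM in Inf. The log2 difference was 2.03 ± 0.20 (SE, adjusted P = 3.05e-05, edgeR's quasi-likelihood test). Gbp2 was at 18.4, 26.2 and 29.7 CPM in control and at 96.0, 84.8 and 101 CPM in Inf, a log2 difference of 1.93 ± 0.18 (SE, adjusted P = 1.7e-05, edgeR's quasi-likelihood test). Gbp7 rose least of the family, by 1.25 on the log2 scale.

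**Figure D4:**
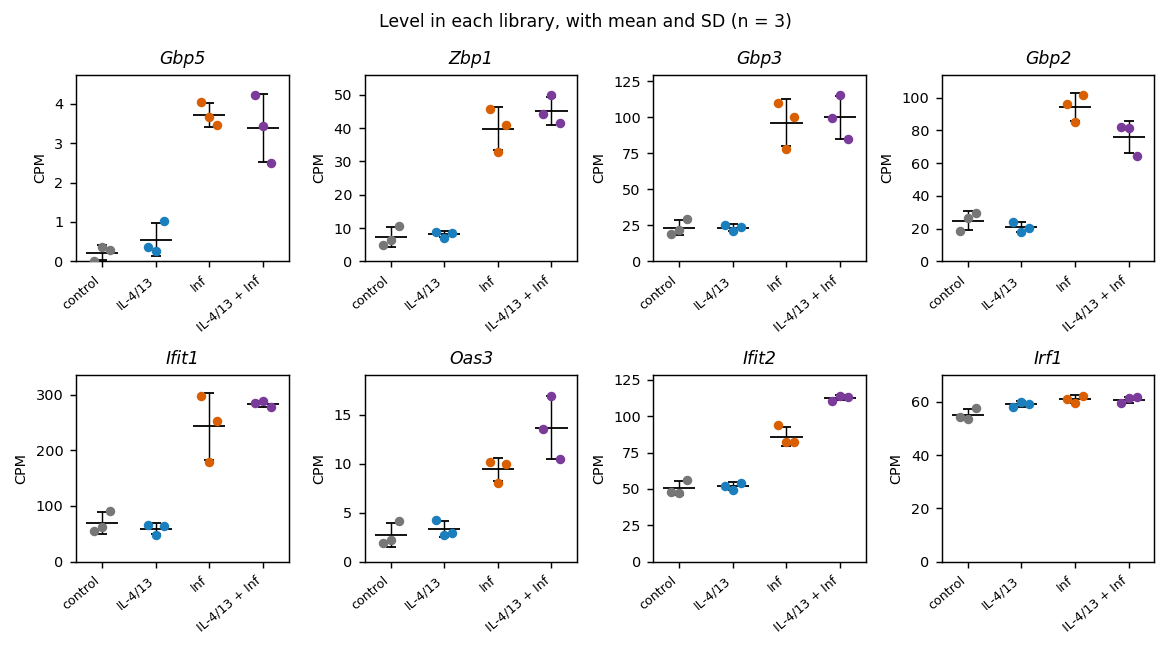
Points are CPM in each library, lines are means and bars are SDs (n = 3), for the 7 members described library by library and for Irf1, which was not called. The Inf and IL-4/13 + Inf points lie above the control points in every panel, from 0 to 0.372 against 2.497 to 4.21 CPM for Gbp5 to 53.7 to 57.5 against 59.4 to 62.3 CPM for Irf1.

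Promoter sequences were read to show what the members share beside their expression. Windows from 250 bases before to 50 bases after the annotated start were found for 32 of the 43 members, 38 windows in all (RefSeq, build GRCm38.p6). Those of Oas2, Mx1, Mx2, Dhx58, Zbp1, Ifi204, Usp18, Iigp1, Parp9, Parp14 and Ifi27 were not matched. An ISRE core, GAAANNGAA on either strand, was in 20 of the 38 windows (52.6%) and in 2812 of all 32851 windows (8.56%). Counted by gene, 20 of 32 members (62.5%) and 9.76% of 27025 genes held it. A GAS, TTCNNNGAA, was in 26.3% of the members' windows and 8.3% of all windows. The spacing that STAT6 prefers, TTCNNNNGAA, was in 21.1% and 6.95%. The NF-kB form GGANTTTCC was in 5.26% and 1.25%, which for the members means Gbp5 and Isg15. A match is a run of letters and does not show binding. Below, capitals mark these matches, and every stretch is written in the direction of transcription. Gbp5 is shown because it rose most with Inf, and the others were chosen after their values were seen. Ifit1, Ifit3 and Isg15 show repeated ISRE cores, and Irf1 shows a GAS in a member that was not called.
Gbp5 promoter (GRCm38.p6 chr3:142496684-142496903, plus strand, ISRE core, 2 GAS and NF-kB form): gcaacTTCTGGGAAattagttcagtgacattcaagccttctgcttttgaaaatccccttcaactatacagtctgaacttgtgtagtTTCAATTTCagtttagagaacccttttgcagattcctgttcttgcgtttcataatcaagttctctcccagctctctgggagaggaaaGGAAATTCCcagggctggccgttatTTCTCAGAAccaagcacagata
Ifit1 promoter (GRCm38.p6 chr19:34640760-34640829, plus strand, 3 ISRE cores, of which 2 overlap): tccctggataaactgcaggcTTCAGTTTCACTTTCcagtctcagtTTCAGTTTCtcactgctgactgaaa
Ifit3 promoter (GRCm38.p6 chr19:34583364-34583445, plus strand, 3 ISRE cores): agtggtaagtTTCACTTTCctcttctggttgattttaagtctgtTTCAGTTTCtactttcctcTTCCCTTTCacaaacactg
Isg15 promoter (GRCm38.p6 chr4:156200844-156200913, minus strand, 3 overlapping ISRE cores and NF-kB form): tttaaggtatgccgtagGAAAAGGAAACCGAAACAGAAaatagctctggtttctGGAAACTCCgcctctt
Irf1 promoter (GRCm38.p6 chr11:53769904-53769953, plus strand, GAS): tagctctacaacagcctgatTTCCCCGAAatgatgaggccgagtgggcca

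In the Gbp5 window the ISRE core starts 164 bases before the annotated start, the NF-kB form 77 bases before it, and the nearer GAS 52 bases before it. The Ifit3 stretch of 82 bases is identical in the promoter of its neighbor Ifit3b (100% of 82 bases), so the letters do not separate these genes. The windows of Ifit2 held 0 ISRE cores, 1 GAS and 1 match of the STAT6 spacing, and those of Ifit1, Ifit3 and Ifit3b held 3 ISRE cores each.

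The Ifit proteins bind viral RNA and block its translation, and all 4 genes rose with Inf. Ifit1 was at 55.3, 62.3 and 91.6 CPM in control and at 298, 179 and 252 CPM in Inf. The log2 fold change was 1.80 ± 0.24 (SE, adjusted P = 0.000277, edgeR's quasi-likelihood test), and the lowest Inf library, Inf 2, was still above every control library. Ifit3 and Ifit3b rose by 1.53 and 1.51 on the log2 scale, but they share 51.2% and 45.0% of their 50-base stretches with other genes, chiefly each other, so their reads may not be told apart. Ifit2 had the smallest response of the family and the smallest spread, at 48.1, 47.1 and 55.9 CPM in control and 93.8, 82.4 and 82.0 CPM in Inf. Its log2 fold change was 0.77 ± 0.065 (SE, adjusted P = 2.66e-11, edgeR's quasi-likelihood test).

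The oligoadenylate synthetases sense double-stranded RNA and activate RNase L, and 4 of the 5 genes of this family rose with Inf. Oas3 was at 1.94, 2.17 and 4.14 CPM in control and at 10.2, 8.09 and 10 CPM in Inf, a log2 difference of 1.77 ± 0.26 (SE, adjusted P = 3.73e-05, edgeR's quasi-likelihood test). Oas1a, Oasl2 and Oas2 rose by 1.14, 1.10 and 0.94 on the log2 scale, and Oas1a shares 57.6% of its 50-base stretches with Oas1g and Oas1b. Oasl1, a repressor of Irf7 translation, stayed near 1 CPM (1.06 ± 0.17 in control, 1.04 ± 0.33 in Inf, SD, n = 3). Of the Mx proteins, GTPases that trap viral particles, Mx2 rose by 1.10, and Mx1 differed by 0.44 with an interval from -0.33 to 1.20.

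Zbp1, a sensor of Z-form nucleic acid that can start cell death, had the second largest response. It was at 4.97, 6.33 and 10.6 CPM in control and at 45.7, 33.0 and 41.0 CPM in Inf, a log2 difference of 2.45 ± 0.23 (SE, adjusted P = 1.13e-05, edgeR's quasi-likelihood test). The control range ended well below the Inf range. All 5 sensors rose with a median log2 fold change of 1.13. The RNA helicases Ifih1 (MDA5) and Dhx58 (LGP2) rose by 0.58 and 0.95, and Ifi204 and Ifi205, of the family of DNA-binding p200 proteins, rose by 1.13 and 1.16. Ifi204 shares 30.2% of its 50-base stretches with other genes of that family.

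Among the transcription factors, Irf7, which drives interferon alpha genes, rose by 1.30 on the log2 scale, while Stat2 and Irf9, which act together at the ISRE, rose by 0.67 and 0.54. Irf1 was nearly flat, at 55.2 ± 2.0 CPM in control and 60.9 ± 1.5 CPM in Inf (SD, n = 3). The 3 Inf libraries of Irf1 were all above control, and the adjusted P was 0.0422 (edgeR's quasi-likelihood test), but its log2 fold change of 0.14 was below the threshold.

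In the ISG15 system, the ubiquitin-like protein Isg15 and its protease Usp18, which also blocks IFNAR2 signalling, rose by 1.03 and 1.01 on the log2 scale, and the ubiquitin ligase Trim25 rose by 0.36. All 5 immunity-related GTPases rose, with log2 fold changes of 0.80 for Ifi47, 0.88 for Igtp, 0.59 for Irgm1, 1.21 for Irgm2 and 1.26 for Iigp1. Igtp shares 12.3% of its 50-base stretches with other genes, chiefly Irgm2. Parp9 and its partner Dtx3l, a ubiquitin ligase, rose by 0.94 and 0.88, and Parp14 rose by 1.05.

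Of the 8 other effectors, 7 rose. Bst2 (tetherin), which holds budding virus at the membrane, rose by 1.11 on the log2 scale, from 190 ± 33 to 409 ± 39 CPM (SD, n = 3). The neighboring genes Rsad2 (viperin) and Cmpk2, which together make an antiviral nucleotide, rose by 0.82 and 1.05. The exonuclease Isg20 rose by 0.71, and Ifi35, Ifi44 and the apoptosis-related Xaf1 rose by 0.60, 1.22 and 0.98. Ifi27 did not follow, with 93.8 ± 7.1 CPM in control and 88.9 ± 2.8 CPM in Inf (SD, n = 3) and an interval of its log2 fold change from -0.20 to 0.046. Per kilobase of the longest transcript, Bst2, Isg15 and Ifi27 had the highest control levels, at 239, 124 and 96.0 CPM per kilobase, and Gbp5 had the lowest at 0.0597. In Inf, Bst2 and Isg15 were at 517 and 254 CPM per kilobase, Ifit1 was at 91.6 and Ifi27 at 91.0.

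IL-4/13 alone called no member. With IL-4/13 against control, 0 of 43 members were called higher and 0 lower by edgeR's quasi-likelihood test, where 2.78% of all tested genes were called higher and 2.57% lower (5.35% in either direction). DESeq2 also called 0, and 3 members had an unadjusted P below 0.05. The median log2 fold change was 0.025, with 24 members above 0 and 19 below. The lowest was Ifit3b at -0.83 and the highest was Gbp5 at 1.24, and the adjusted P ranged from 0.0929 to 0.997. The Gbp5 value (SE 0.64) rests on 0, 6 and 5 counts in control and 7, 4 and 14 with IL-4/13. Gbp5 passed the filter through its counts in the conditions with Inf. The 95% intervals reached 0.506 on either side at the median, so moderate differences of single members were not detectable at this spread. For Isg15, for example, the interval was -0.77 to 0.32. Libraries of the conditions overlapped for 39 members. Both Oasl1 and Irf1 had all IL-4/13 libraries above control, and Ifit3b and Isg20 had all below, where 13.4% of all tested genes lay above and 13.1% below. Without control 3, Ifi204 and Dtx3l were called higher, 2 members in all, and without any other single library the count was 0.

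Adding IL-4/13 to Inf changed 1 member by the test. With IL-4/13 + Inf against Inf, 1 member was called higher and 0 lower, where 7.55% of all tested genes were called higher and 7% lower. The median log2 fold change was 0.18, with a range of -0.30 for Gbp2 to 0.57 for Oasl1, and 35 members were above 0 and 8 below. Inf 2, the lowest Inf library for 40 members, is part of this baseline, so the lean is not a set of independent results. How many members stay above 0 without Inf 2 was not counted. The called member was Ifit2, at 93.8, 82.4 and 82.0 CPM in Inf and at 111, 114 and 113 CPM after the addition, with no overlap. In IL-4/13 alone it was at 52.2, 49.3 and 54.4 CPM, within the range of control. Its log2 fold change was 0.39 ± 0.061 (SE, adjusted P = 1.55e-05, edgeR's quasi-likelihood test), a 1.31-fold rise, and it was called without each of the 12 libraries.

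The response of Ifit2 to IL-4/13 was larger with Inf than without it, by 0.35 ± 0.091 on the log2 scale (SE, adjusted P = 0.026, edgeR's quasi-likelihood test of the interaction). It was the only member called in that contrast, where 1.52% of all tested genes were higher and 1.59% lower (3.11% in either direction). The interaction call was lost without control 3, without IL-4/13 1 or 2, without Inf 2, and without any of the IL-4/13 + Inf libraries, with values from 0.26 to 0.42.

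Of the other members, Oas3 had the lowest adjusted P and Gbp2 the lowest log2 fold change, and neither was called. Oas3 was at 10.2, 8.09 and 10 CPM in Inf and at 13.6, 16.98 and 10.5 CPM in IL-4/13 + Inf, with no overlap. The log2 fold change was 0.55 ± 0.21 (SE, adjusted P = 0.0681, edgeR's quasi-likelihood test), and it was called under 6 of 19 alternatives, including DESeq2. Gbp2 was at 96.0, 84.8 and 101 CPM in Inf and at 82.1, 81.3 and 64.4 CPM in IL-4/13 + Inf, all lower than in Inf. Its log2 fold change was -0.30 ± 0.16 (SE, adjusted P = 0.224, edgeR's quasi-likelihood test), and it was called in 1 of 19 alternatives. Ifit1, Zbp1, Gbp3 and Gbp5 overlapped between these conditions. Ifit1 was at 286, 288 and 278 CPM in IL-4/13 + Inf, Zbp1 at 44.3, 49.9 and 41.4, Gbp3 at 99.3, 115 and 85.3, and Gbp5 at 4.21, 3.43 and 2.497. In all, 6 members had every IL-4/13 + Inf library above Inf and 2 had every library below, where 18.3% and 16.8% of all tested genes did. The count of members called higher was 4 without Inf 1, with Ifih1, Trim25 and Rsad2 added. It was 3 without control 3, and 2 without control 1 or without IL-4/13 + Inf 3.

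Against control, IL-4/13 + Inf raised 39 of 43 members and lowered 0, where 13.4% of all tested genes were called higher and 11.5% lower (24.9% in either direction). This comparison shares its control libraries with Inf against control and is no independent repeat. The median log2 fold change was 1.18, from 0.55 for Isg20 to 3.92 for Gbp5 among the called members. For 41 members the IL-4/13 + Inf libraries lay above all control libraries, and for 1 they lay below. Of all tested genes, 23.4% lay above and 22.8% below. The members not called were again Oasl1, Mx1, Irf1 and Ifi27. Ifi27 was the exception in direction, at 93.8 ± 7.1 CPM in control and 81.9 ± 2.1 CPM with all cytokines (SD, n = 3). Its log2 fold change was -0.20, below the threshold in size, with an adjusted P of 0.011 (edgeR's quasi-likelihood test).

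The interferon genes themselves were at or near the limit of detection. Of 21 interferon genes in the table, 15 had 0 counts in all libraries, none was tested, and the most in any library was 4 counts of Ifnb1, the interferon beta gene. Ifnb1 had 0, 0 and 2 counts in control and 4, 0 and 0 counts with IL-4/13. It had 0, 2 and 1 counts with Inf and 1, 3 and 1 counts with both. Ifng, the interferon gamma gene, had 0 counts in all 12 libraries. A count of 0 was taken to leave room for a level of up to 3 counts, which is 0.146 to 0.221 CPM in these libraries, for counting error only. These counts were taken at 24 hours and give no level at earlier times.

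Receptor and signalling genes of the pathway were measured, and 8 of 13 tested rose with Inf while 0 fell (61.5% higher, where 16.3% of all tested genes were called higher and 15.3% lower). Ifnar1 went from 93.2 ± 5.1 CPM in control to 173 ± 9.2 CPM in Inf (SD, n = 3), a log2 fold change of 0.90. Ifnar2 was at 19.5, 20.9 and 20.3 CPM in control and at 67.4, 70.9 and 76.1 CPM in Inf, a log2 difference of 1.82 ± 0.069 (SE, adjusted P = 7.14e-20, edgeR's quasi-likelihood test). Both chains of the type I receptor were thus higher in every Inf library. The feedback inhibitor Socs3 rose by 2.16, and Il10rb, a chain of the interferon lambda and IL-10 receptors, rose by 2.23 from 0.24 ± 0.092 CPM (SD, n = 3). Il10rb passed the filter on low counts through the conditions with Inf, where it was high. Of the interferon gamma receptor, Ifngr2 rose by 1.41 and Ifngr1 differed by 0.17, which was not called.

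Among these genes a few were called with IL-4/13. Against control, 2 of the 13 receptor and signalling genes rose (15.4%, where 2.78% of all tested genes did). Ifngr2 was at 50.7, 50.7 and 49.4 CPM in control and at 78.8, 83.5 and 74.0 CPM with IL-4/13. It was at 129, 134 and 137 CPM with Inf and at 216, 211 and 217 CPM with both. No condition overlapped with another. Its log2 fold change with IL-4/13 was 0.65 ± 0.053 against control and 0.69 ± 0.048 on top of Inf (SE). Socs1, a JAK inhibitor that IL-4 is known to induce, was at 11.8, 14.1 and 14.7 CPM in control and at 27.2, 28.3 and 30.7 CPM with IL-4/13. It was at 20.3, 19.7 and 20.1 CPM with Inf and at 37.7, 36.9 and 37.1 CPM with both, so that no condition overlapped with another. It rose by 1.09 with IL-4/13, by 0.57 with Inf, and by 0.89 when IL-4/13 was added to Inf. Ifnar2 went the other way on top of Inf, to 50.9, 55.0 and 52.4 CPM, a fall by 0.44 on the log2 scale (SE 0.062, adjusted P = 3.23e-06, edgeR's quasi-likelihood test). Ifnar1 differed by -0.22 in that comparison, below the threshold in size.

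**Figure D5:**
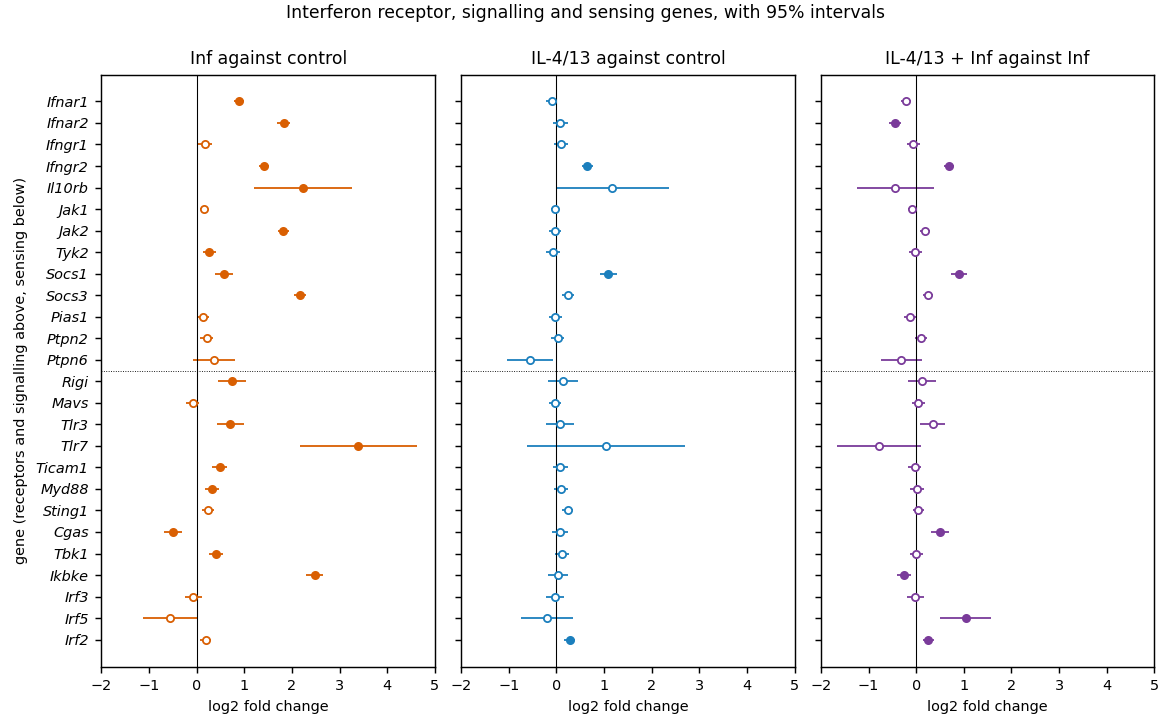
Points are log2 fold changes with 95% intervals for the tested receptor, signalling and sensing genes in the same comparisons as for the members, and filled points are called. Il10rb, Socs3, Ifnar2, Tlr7 and Ikbke lie furthest right for Inf against control, Ifngr2 and Socs1 are called in all 3 panels, and Ifnar2 lies below 0 for IL-4/13 + Inf against Inf.

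Of 13 tested genes that sense nucleic acid or lead to interferon production, 7 rose with Inf and 1 fell (53.8% and 7.69%, against 16.3% and 15.3% of all tested genes). The kinase Ikbke rose by 2.47 on the log2 scale and the RNA sensor Rigi by 0.74. The endosomal RNA receptor Tlr7 rose from 0.343, 0.124 and 0 CPM in control to 2.79, 1.85 and 0.606 CPM in Inf. The log2 fold change was 3.39, with 4.68 without control 1 and 2.84 without control 3. Tlr7 passed the filter on low counts only through the conditions with Inf, where it was high, so its call is no separate support for the rise. The gene that fell, named for its direction after its value was seen, was the DNA sensor Cgas, at 21.2 ± 1.2 CPM in control and 14.97 ± 0.29 CPM in Inf (SD, n = 3), a fall by 0.50 on the log2 scale. On top of Inf, IL-4/13 raised Irf5 by 1.04, Cgas by 0.50 and Irf2 by 0.25, and Ikbke fell by 0.26. That is 23.1% higher and 7.69% lower, where 7.55% and 7% of all tested genes were. The calls of Ikbke and Irf2 held in 10 and 9 of the 12 fits with a library left out, and both were lost without Inf 1 or IL-4/13 + Inf 1, and that of Irf2 also without Inf 2. Irf2 was also the only sensing gene called with IL-4/13 against control, at 0.28, and this call was lost without control 2. It makes up 7.69% of the tested sensing genes, where 2.78% of all tested genes were called higher.

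Of 57 other tested interferon-stimulated genes, 47 rose with Inf and 1 fell (82.5% and 1.75%, against 16.3% and 15.3% of all tested genes). The largest changes were in the chemokine Cxcl11 at 5.27 and the membrane protein Ifitm1 at 4.09, both from at most 0.286 CPM in control, and in Slfn2 at 2.65. With IL-4/13 alone Cxcl11 and Ifitm1 reached at most 0.662 and 0.0735 CPM. Both passed the filter on low counts only through the conditions with Inf, where they were high, so their calls are no separate support for the rises. The gene that fell, by 0.44, was Ifi30, a thiol reductase of antigen processing, also named after its value was seen. With IL-4/13 alone 1 was called, Pnpt1, a mitochondrial RNA-degrading enzyme, at 0.30. That is 1.75% called higher, where 2.78% of all tested genes were. On top of Inf, 4 rose and 2 fell (7.02% and 3.51%), which is no more than the 7.55% and 7% of all tested genes. Pnpt1 rose by 0.35, Tap1 by 0.38, Oas1g by 0.36 and Slfn9 by 0.30, and the last 3 calls held in 8, 6 and 9 of the 12 fits with a library left out. All 3 were lost without Inf 2, Inf 3 or IL-4/13 + Inf 2, those of Tap1 and Oas1g also without IL-4/13 + Inf 1, and that of Oas1g also without IL-4/13 1 or IL-4/13 + Inf 3. The pair that fell was Ifitm1 and Ifitm2, which restrict viral entry. Ifitm2 was at 342, 312 and 347 CPM in Inf and at 230, 224 and 238 CPM in IL-4/13 + Inf, a fall by 0.53 (SE 0.047, adjusted P = 4.67e-10, edgeR's quasi-likelihood test). Ifitm1 fell by 1.84, from 4.05, 3.31 and 3.15 CPM to 0.694, 1.12 and 1.15 CPM.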

How the data were processed

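The authors deposited raw counts, whole numbers of reads per gene in 12 libraries of polyadenylated RNA made with a stranded kit. The submitters' processing notes name STAR, featureCounts and GRCm39, without versions. The strand setting and the handling of reads that match several genes are not given in the sources used here. Conditions were taken from the sample labels.

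Genes were filtered with edgeR's filterByExpr (minimum count 10, minimum total count 15), which left 14810, and scaled with TMM. All 12 libraries entered 1 robust quasi-likelihood fit of condition means (R 4.3.3, edgeR 4.0.16, limma 3.58.1), with Benjamini-Hochberg adjustment over all tested genes. The study's methods name DESeq2 for these libraries, which is an alternative here (1.42.0). The thresholds of adjusted P and log2 fold change are those the study gives for pseudobulk data. Each treatment was set against control, the combined treatment also against Inf, and the interaction was tested.

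The members and gene lists were chosen with earlier results of these data known. Values per library were given for called members among the 5 largest rises or falls in any contrast. Pathway genes were named where among the 3 largest called changes of their list, or as fixed pathway components. Shared 50-base stretches and transcript lengths came from GENCODE M21 (GRCm38) and promoters from RefSeq (GRCm38.p6), and no coordinates were converted. Plots added 0.5 CPM before taking logs. In simulated counts for Inf against control, 79.5% of 200 genes given a log2 change of 1 were recovered, with 5 unchanged genes called among 14526. These genes were picked at random from all tested genes and drawn independently. The members spread more and moved together, so these shares do not carry over to them. Python 3.11.15 and matplotlib 3.10.9 were used for sequences and plots.

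Alternatives were DESeq2, DESeq2's size factors in edgeR, library size alone, no filter, a mean of at least 50 counts, only the compared groups, a replicate block, fold-change thresholds of 0 and 1, and each library left out. The single-cell and protein data of the study were not analysed here, and 1 signalling gene is not reported here.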

Additional observations from a re-analysis of the deposited data

Results flagged for a closer look

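The responses of 4 genes to IL-4/13 differed between cells with and without Inf, by the edgeR quasi-likelihood test of the interaction over all tested genes, beyond the threshold in size. The Ifit2 response was larger with Inf by 0.35 on the log2 scale (SE 0.091, adjusted P = 0.026), and it was called in 5 of 12 fits with a library left out. The Ifnar2 response was lower with Inf, by -0.52 (SE 0.099, adjusted P = 0.0012), and was called in 12 of 12. The Ifitm2 response was also lower with Inf, by -0.37 (SE 0.068, adjusted P = 0.00076), and was called in 12 of 12. The Ifitm3 response was lower by -0.25 (SE 0.068, adjusted P = 0.035), and was called in 3 of 12. Only Ifit2 is one of the 43 members. Among all tested genes 3.11% were called in this contrast, so 4 calls among the 43 members and 83 tested pathway genes are near the share over all genes.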

How the results depend on the processing

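The counts of members called for each treatment against control stayed within 1.5 times their values under DESeq2, its size factors in edgeR, scaling by library size, both filters and the replicate block. No named gene changed direction where it was called. With only the compared groups, 31 members were called for Inf against control. A log2 fold change threshold of 1 left 23 for Inf against control, 0 for IL-4/13 + Inf against Inf and 0 for the interaction, by construction. A threshold of 0 gave 1 member lower (Ifi27) for IL-4/13 + Inf against control. For IL-4/13 + Inf against Inf, DESeq2 called 2 members higher, no filter called 4, and only the compared groups called 3 higher and 1 lower (Gbp2), and the cause was not tested. With a library left out, the counts called higher were 35 to 39 for Inf, 0 to 2 for IL-4/13 and 37 to 40 for IL-4/13 + Inf against control, 1 to 4 for IL-4/13 + Inf against Inf, and 0 to 1 for the interaction. The fit with only the compared groups was not run for the interaction.

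Same-numbered libraries did not deviate together. The correlations of their deviations ran from -0.146 to 0.0543 over 18 pairs, and 0 of 12 libraries correlated best with their own number. With the replicate block the members called higher were 39 for Inf, 0 for IL-4/13 and 39 for IL-4/13 + Inf against control, 1 for IL-4/13 + Inf against Inf and 1 for the interaction. In the block fit Slfn9 and Oas1g for IL-4/13 + Inf against Inf and Ifitm3 for the interaction were not called.

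The spread of the members between libraries, more than the depth, limits differences between IL-4/13 and control, with a median interval of 0.506 on either side. For interferon genes with a count of 0, levels under 0.146 to 0.221 CPM were not detectable at this depth.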
